A study of Mus musculus with 24 samples.

Results

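The question was whether co-cultures with macrophages lacking Tmem175 changed their RNA differently from WT co-cultures when tumour antigen was added, and whether the antigen-free or the antigen-exposed condition held the genotype difference. Bone-marrow-derived macrophages (BMDMs), WT or Tmem175-/- (knockout, KO), were co-cultured with lymphocytes from the spleens of tumour-bearing mice. The tumour was B16-F10-OVA, a melanoma cell line of the mouse engineered to make ovalbumin. Each genotype was sequenced without antigen and with B16-F10-OVA tumour cell antigen, giving 4 groups of 3 libraries (WT none, WT antigen, KO none, KO antigen), which are 12 of the 24 libraries of the series. The other 12 libraries had antigen plus 500 pg/ml IL-1β or IL-18 and were used only as further measurements of the genotype difference with antigen present. The knockout refers to the macrophages, the genotype of the lymphocytes is not given in the labels, and age, sex, number of animals and the origin of the replicates are not given either, and every p-value therefore rests on the scatter of these libraries, which may be technical. Because each library holds macrophages and lymphocytes together, fewer cells of a type and less RNA per cell cannot be told apart.

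Tmem175 is an ion channel of the lysosomal and late endosomal membrane that conducts potassium and protons and takes part in setting lysosomal pH. Macrophages take up antigen into that compartment, answer microbial or tumour material through NF-κB and interferon signalling, and leave or enter the cell cycle depending on growth factor and activation signals. Lymphocytes of tumour-bearing mice bring T cells, NK cells and B cells to the culture, with granzymes and perforin as the killing proteins of the first pair.

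The 12 libraries held 17744540 to 24060414 counts, and 13763 genes passed the filter on low counts, with at least 99.9% of each library's counts. In a principal component analysis the first component held 65.4% of the variance and separated antigen from none, and the next held 24.6% and separated the genotypes. Tmem175 was measured at 26.3, 25.5 and 24.6 CPM (counts scaled to library size) in WT none, 13.8, 16.4 and 15.7 in WT antigen, 15, 14.1 and 14.6 in KO none and 7.66, 8.82 and 8.21 in KO antigen, so the knockout libraries were lower in both conditions and still held Tmem175 reads. Its antigen response did not pass for a genotype difference (log2 difference of responses -0.10 ± 0.107 SE, adjusted p = 0.677). Macrophage markers, 12 genes, summed to 18300 to 19000 CPM in WT none, 24500 to 25700 in WT antigen, 13200 to 13600 in KO none and 15500 to 18000 in KO antigen. This sum was lower in knockout in both conditions without overlap, but a sum follows its most abundant members. Over the 12 genes the median log2 genotype difference was 0 without antigen (2 called higher, 3 lower). With antigen it was 0.03 (2 called higher, 2 lower). The 15 T cell markers summed to 757 to 762 CPM in WT none, 205 to 234 in WT antigen, 1010 to 1040 in KO none and 293 to 361 in KO antigen. That sum was higher in knockout in both conditions. The median log2 genotype difference of the 15 genes was -0.08 without antigen (1 called higher, 1 lower) and 0.39 with it (2 called higher, 1 lower). The part of either difference in summed level in the results was not tested. T cell receptor genes were low, with Cd3e between 0.785 and 2.36 CPM and Trac between 1.13 and 1.97 CPM over the 12 libraries. Libraries labelled KO none differed most among themselves: a chi-square statistic of their counts, divided by its degrees of freedom, was 1.44 to 15.7 over the 12 pairs of same-group libraries, and replicate 2 of KO none was in the pair with the highest value.

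For each gene the difference of responses was (KO antigen minus KO none) minus (WT antigen minus WT none) on the log2 scale, tested with edgeR's quasi-likelihood test. A positive value means that antigen raised the gene more, or lowered it less, in knockout co-cultures. At a Benjamini-Hochberg adjusted p under 0.05, 804 of 13763 genes passed (5.84%), 447 with a positive value (3.25%) and 357 with a negative value (2.59%). Of these, 61 and 17 genes differed by at least 2-fold. The responses themselves were far wider, with 9398 genes passing in WT (68.3%) and 9457 in knockout (68.7%). The count of 804 moved to 1547 without KO none replicate 2, where 24 of the 804 were lost, to 452 without KO none replicate 3 and to 492 without WT none replicate 3, and 388 of the 804 passed whichever 1 of the 12 libraries was left out. The split between directions depended on the scaling: 55.6% of the called genes were positive with TMM factors, 46.2% with DESeq2's median-of-ratios factors, 81.3% with library totals and 45.1% in a fit of all 24 libraries.

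The 804 genes were then sorted by where the genotypes differed, using the test of knockout against WT in each condition (1995 genes, 14.5%, without antigen and 1891 genes, 13.7%, with antigen). The difference of responses is built from the same libraries as these tests, so the sorting describes the genes and is no further evidence. In 336 genes (41.8%) the genotype difference passed without antigen alone, 145 with a positive and 191 with a negative difference of responses. In 271 genes (33.7%) it passed with antigen alone, 160 positive and 111 negative. In 122 genes (15.2%) it passed in both conditions with opposite signs, and 97 of those were lower in knockout without antigen and higher with it. A further 29 genes passed in both conditions in the same direction with unequal size, and 46 passed in neither. Sorting by size alone, where 1 condition's genotype difference had to be at least 2 times the other, put 279 genes on the side without antigen, 220 on the antigen side and 305 on neither. The call for the difference of responses was kept in every leave-one-out fit by 121 of the 122 sign-changing genes. It was kept by 123 of 336 without antigen alone, 128 of 271 with antigen alone, 16 of 29 and 0 of 46. The sorting favours this order, since 2 passed genotype differences of opposite sign add up in the difference of responses. These counts follow the call and not the class: the sign-changing class held 64 to 206 genes in those fits.

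**Figure D1:**
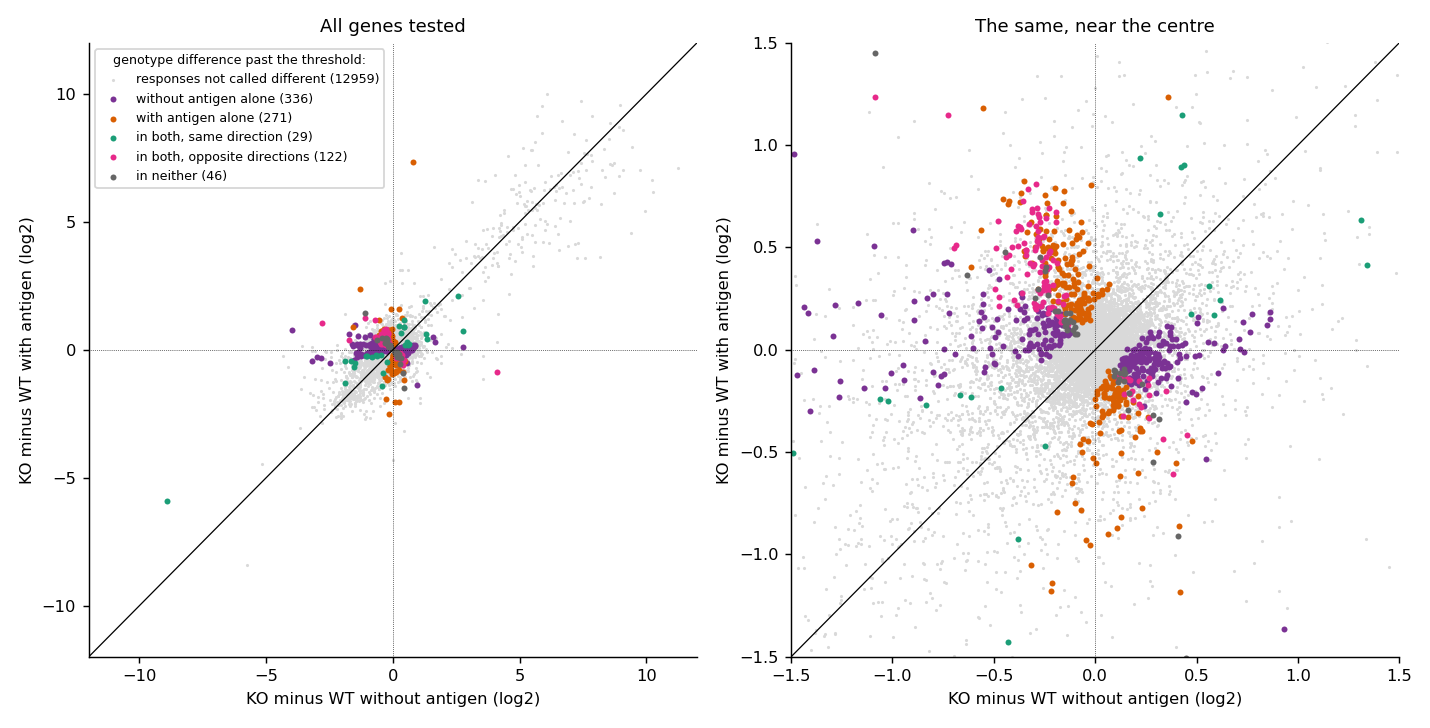
Each point is a gene, with knockout minus WT without antigen on the x axis and with antigen on the y axis (log2), over all 13763 genes on the left and near the centre on the right. Genes on the diagonal differ equally in both conditions; the 336 genes of the largest class lie along the x axis, the 271 genes of the next along the y axis, and 97 of the 122 sign-changing genes in the upper left part.

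Of 3087 genes with a genotype difference in at least 1 condition, 758 also passed for the difference of responses, and of 799 genes that passed in both conditions 677 had the same direction, 29 of them with a called difference of responses. Genes that did not pass are not shown to respond alike. Over all 13763 genes the genotype difference without antigen and that with antigen, which share no library, had Pearson's r = 0.844 and Spearman's rho = 0.238. This is a correlation across genes, which are not independent replicates, and the immunoglobulin genes carry its high end.

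Genes of mitosis and cytokinesis changed most uniformly. Of the 24 tested genes of a list of mitotic cyclins, kinases, kinesins and centromere proteins, 23 had a positive called difference of responses and 0 a negative one, against 3.25% of all genes, with a list median of 0.80 against 0.01 over all genes. Antigen lowered 23 of them in WT (median -1.27, against 35.1% of all genes lowered) and 20 in knockout (median -0.46, against 34.1%). Without antigen 21 were lower in knockout (median -0.28), and with antigen 22 were higher (median 0.48), so that 20 of the 23 fell in the sign-changing class. The same count of 23 was reached with each scaling, with the Wald test of DESeq2, in the fit of all 24 libraries and without KO none replicate 2, and each of the 23 passed in every leave-one-out fit.

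Ccnb2, cyclin B2, a partner of the mitotic kinase Cdk1, was at 25, 24.3 and 26.4 CPM in WT none, 9.98, 10 and 9.67 in WT antigen, 19.2, 22.6 and 20.1 in KO none and 18.2, 15.8 and 17.8 in KO antigen. The genotypes did not overlap in either condition, and their order changed between conditions. The log2 difference of responses was 1.10 ± 0.105 (SE, adjusted p = 9.36e-06). Ccna2, cyclin A2, which acts in S phase and at mitotic entry, was at 66.3, 70.1 and 67 CPM in WT none, 22.6, 23.2 and 23.1 in WT antigen, 52.7, 58.7 and 52.7 in KO none and 37.8, 36.6 and 35.4 in KO antigen (0.98 ± 0.0719, adjusted p = 9.86e-07). Here antigen lowered the gene in both genotypes, with log2 responses of -1.56 in WT and -0.58 in knockout. Nusap1, a spindle protein, and Ube2c, the ubiquitin-conjugating enzyme of the anaphase-promoting complex, differed by 0.98 ± 0.0866 and 0.99 ± 0.107. Mki67, the proliferation marker Ki-67, stood apart from this pattern. It was at 283, 276 and 281 CPM in WT none and 235, 215 and 226 in KO none, while the antigen groups overlapped at 98.4, 111 and 103 in WT and 112, 119 and 102 in knockout. Its difference of responses (0.41 ± 0.0757, adjusted p = 0.00414) therefore came from the antigen-free libraries. Cks2, a cyclin-dependent kinase subunit, was the member that did not pass (0.24 ± 0.159, adjusted p = 0.436). Depdc1a and Cdkn3, a mitotic regulator and a phosphatase of cyclin-dependent kinases outside the list, were among the largest positive genes of the antigen-alone class, at 1.18 ± 0.246 and 1.13 ± 0.211.

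**Figure D2:**
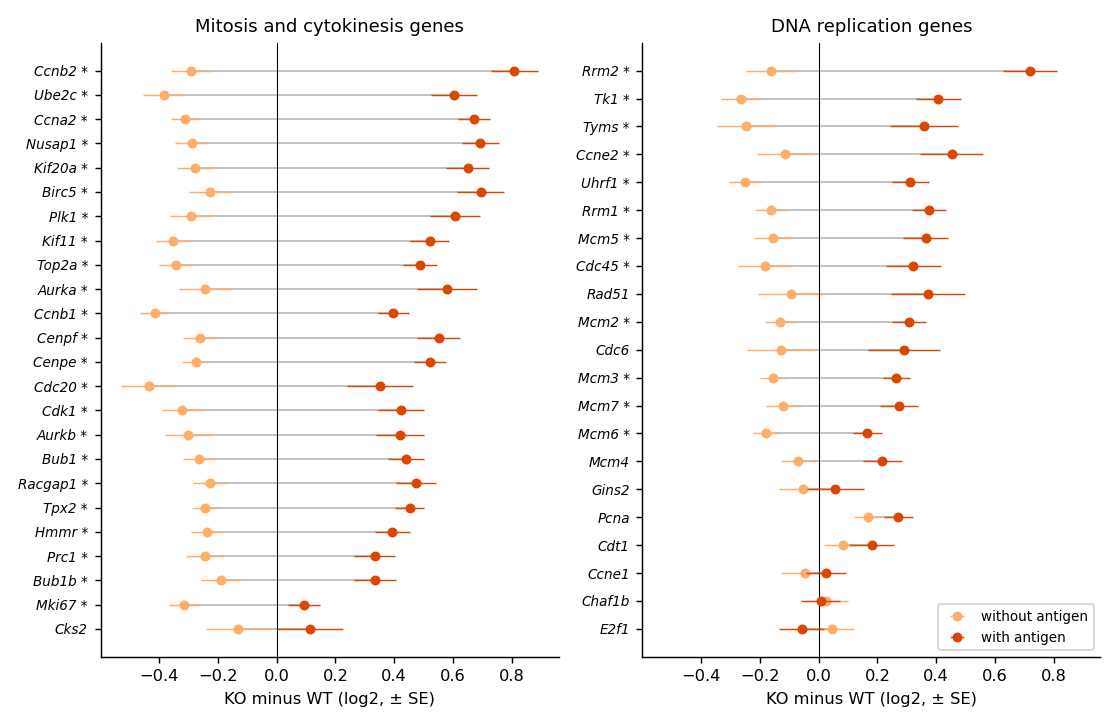
Knockout minus WT (log2, with SE) without and with antigen for the 24 mitosis and cytokinesis genes and 21 DNA replication genes, ordered by the difference of responses; an asterisk marks a called difference of responses. In the left panel 21 genes are below 0 without antigen and 22 above 0 with it past the threshold; in the right panel 14 are above 0 with antigen and 4 below 0 without.

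Genes of DNA replication followed with smaller values. Of 22 tested genes 13 had a positive difference of responses and 0 a negative one (median 0.43), against 3.25% and 2.59% of all genes. With antigen 15 were higher in knockout (median 0.30, against 7.32% of all genes higher), whereas without antigen 4 were lower and 1 was higher (median -0.13, against 6.6% and 7.9% of all genes). Accordingly 9 of the 13 fell in the antigen-alone class. Rrm2, the regulated subunit of ribonucleotide reductase, which makes deoxynucleotides, was at 40, 43.9 and 41.1 CPM in WT none, 19.8, 20.5 and 21.6 in WT antigen, 35.4, 43.8 and 33.1 in KO none and 35.6, 34.8 and 31.5 in KO antigen. Its groups overlapped without antigen and were apart with it, and the response differed by 0.88 ± 0.126 (adjusted p = 0.00105). Tk1, thymidine kinase, had 0.67 ± 0.102, and Tyms, thymidylate synthase (0.61 ± 0.152), lost its call in 6 of the 12 leave-one-out fits. Of the replicative helicase genes Mcm2, Mcm3, Mcm5, Mcm6 and Mcm7 passed, between 0.34 for Mcm6 and 0.52 for Mcm5, and Mcm4 did not (0.29 ± 0.0877, adjusted p = 0.0657).

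Since the mitotic genes moved together, their promoters are shown. Many mitotic genes are known to carry a CCAAT box, the site of the factor NF-Y, and a cell cycle genes homology region with the letters TTTGAA, at which the DREAM and MuvB complexes act. RefSeq's promoters of GRCm38.p6 held 20 of the 24 genes, and the 250 bases before each start were searched for CCAAT and for TTTGAA on both strands. CCAAT was found in 18 of 20 genes (90%), against 37.5% of all 27025 genes with a RefSeq promoter and 40.4% of the 10059 tested genes that matched. TTTGAA was found in 8 of 20 (40%), against 18.3% and 13.2%. For the DNA replication genes the shares were 58.8% and 11.8% of 17 matched genes. For a list of interferon-induced GTPases they were 27.3% and 45.5% of 11 matched genes, so a raised TTTGAA share was not particular to the mitotic list. For the 84 matched of the 97 genes lower in knockout without antigen and higher with it they were 57.1% and 32.1%. Those 97 genes include 20 of the mitotic list, which were not taken out. The 3 stretches below belong to the mitotic genes with the largest differences of responses among those with both motifs. They are written 5′ to 3′ on the gene's own strand, the last base lying just before the start, with each match of either motif, or of its reverse complement, in capitals. Their positions are chr9:70421555-70421804 on the minus strand for Ccnb2, chr2:164769679-164769928 on the plus strand for Ube2c and chr19:37376132-37376381 on the plus strand for Kif11, a kinesin of the spindle (0.87, adjusted p = 1.41e-05).
Ccnb2: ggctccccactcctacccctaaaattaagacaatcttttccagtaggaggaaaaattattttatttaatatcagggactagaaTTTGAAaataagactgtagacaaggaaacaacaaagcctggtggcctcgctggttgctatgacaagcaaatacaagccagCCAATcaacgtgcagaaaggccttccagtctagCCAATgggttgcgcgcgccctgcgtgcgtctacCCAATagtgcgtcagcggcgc
Ube2c: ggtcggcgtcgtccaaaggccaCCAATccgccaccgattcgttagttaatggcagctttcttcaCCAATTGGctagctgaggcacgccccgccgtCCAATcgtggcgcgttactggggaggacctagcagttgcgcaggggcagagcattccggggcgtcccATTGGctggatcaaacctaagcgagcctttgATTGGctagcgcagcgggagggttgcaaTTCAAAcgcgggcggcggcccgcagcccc
Kif11: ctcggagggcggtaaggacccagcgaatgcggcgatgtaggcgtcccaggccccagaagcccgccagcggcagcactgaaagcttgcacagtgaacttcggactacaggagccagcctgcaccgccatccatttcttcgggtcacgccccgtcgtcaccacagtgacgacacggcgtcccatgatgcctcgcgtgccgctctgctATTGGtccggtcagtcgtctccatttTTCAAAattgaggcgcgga
Ccnb2 held 3 CCAAT matches, starting 87, 54 and 21 bases before the start, and 1 TTTGAA match 167 bases before it. That match lay farther from the start than all 3 CCAAT matches, unlike those of the next 2 genes. Ube2c held 6 CCAAT matches counted over both strands, of which 1 pair overlaps, and 1 TTTGAA match 29 bases before the start. Kif11 held 1 of each, 45 and 19 bases before it. These matches describe letters and not binding.

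T cells and NK cells kill with granzymes, perforin and other effector proteins. Of 12 tested cytotoxic effector genes 5 had a positive difference of responses and 0 a negative one (list median 0.96), against 3.25% and 2.59% of all genes. In knockout 5 were lower without antigen (median -0.68, against 6.6% of all genes) and 2 were higher with antigen (median 0.31, against 7.32%). Gzmb, granzyme B, was at 43.2, 46.3 and 46.3 CPM in WT none, 33.7, 28.3 and 40.7 in WT antigen, 13.2, 13.8 and 13.3 in KO none and 39.8, 45.7 and 48.6 in KO antigen. KO none was thus the low group, while WT antigen and KO antigen overlapped. The log2 response to antigen was -0.41 in WT and 1.73 in knockout, a difference of 2.14 ± 0.17 (adjusted p = 5.42e-05).

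Gzma, granzyme A, was lower in level, with overlapping WT antigen and KO none groups, at 4.19, 3.81 and 4.62 CPM in WT none, 1.25, 0.889 and 2.07 in WT antigen, 1.67, 1.65 and 2.55 in KO none and 3.38, 3.51 and 2.94 in KO antigen (2.32 ± 0.326, adjusted p = 0.000385). Both granzymes were in the sign-changing class, although for Gzmb the side with antigen passed narrowly (0.39 ± 0.112, adjusted p = 0.0432). Prf1, perforin, Gzmc, granzyme C, and Nkg7, a granule membrane protein, passed without antigen alone, with differences of responses of 1.90 ± 0.381, 2.73 ± 0.491 and 1.00 ± 0.222, and levels below 6 CPM in all 12 libraries. Il2rb, the shared β chain of the IL-2 and IL-15 receptors, was at 17.8, 16.5 and 18.4 CPM in WT none, 13, 10.8 and 16 in WT antigen, 9.08, 9.96 and 9.35 in KO none and 14.4, 15.3 and 17 in KO antigen (1.13 ± 0.162, adjusted p = 0.000644). Ifng, interferon γ, had a value of 1.44 ± 0.494 with an adjusted p of 0.0999. Of the 15 T cell markers 0 passed for the difference of responses with edgeR or DESeq2, with 4 at an unadjusted p under 0.05, and of the 6 tested NK cell markers 1 did, Gzma itself. The NK cell markers summed to 9.68 to 10.2 CPM in WT none, 3.85 to 4.69 in WT antigen, 6.28 to 8.23 in KO none and 6.69 to 8.22 in KO antigen. Their part in the effector gene values was not tested.

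Among other genes that differed without antigen alone, a first group was low in KO none and did not pass for a genotype difference with antigen. Marcksl1, an actin-binding substrate of protein kinase C, was at 29.9, 36 and 29.6 CPM in WT none, 156, 141 and 148 in WT antigen, 9.96, 13.8 and 10.8 in KO none and 141, 132 and 134 in KO antigen. The antigen groups met at 141 CPM, and the rise was larger in knockout by 1.35 ± 0.138 (adjusted p = 0.000206). Icosl, the ligand of the T cell costimulator ICOS, was at 8.03, 8.43 and 8.89 CPM in WT none and 3.19, 3.99 and 3.4 in KO none, against 6.52, 8.93 and 7.9 in WT antigen and 6.63, 7.12 and 6.33 in KO antigen. Its level rose with antigen in knockout by 0.93 and did not pass in WT (difference 1.03 ± 0.173, adjusted p = 0.0017). Tnfsf10, the death ligand TRAIL, differed by 1.23 ± 0.239 (adjusted p = 0.00633). Cxcl16, a scavenger receptor and chemokine, and Asns, asparagine synthetase, a target of the amino acid response, differed by 0.49 ± 0.0924 and 0.62 ± 0.113, each from a lower level in KO none.

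The other direction held genes that were high in KO none and did not pass for a difference with antigen. Wfs1, an endoplasmic reticulum membrane protein, was at 26.4, 26.7 and 26.9 CPM in WT none, 6.97, 8.08 and 7.01 in WT antigen, 53.8, 42.8 and 47.2 in KO none and 7.49, 7.92 and 8.74 in KO antigen. The antigen-exposed genotypes overlapped, and the fall was larger in knockout (-0.72 ± 0.132, adjusted p = 0.00328). Cd200, the ligand of an inhibitory receptor of myeloid cells, was at 34.9, 33.6 and 34.3 CPM in WT none, 64.5, 47.3 and 56.9 in KO none, 24.1, 26.4 and 24.9 in WT antigen and 25, 25.9 and 24.8 in KO antigen (-0.71 ± 0.125, adjusted p = 0.00414). Fzd1, a Wnt receptor, fell by 0.83 on the log2 scale with antigen in knockout and did not pass in WT (difference of responses -0.74 ± 0.142). Atf3, a stress-induced transcription factor, followed the same course, at 356, 384 and 356 CPM in WT none, 514, 469 and 512 in KO none, 380, 365 and 368 in WT antigen and 379, 344 and 368 in KO antigen (-0.48 ± 0.0643, adjusted p = 0.000245). Pparg, a nuclear receptor of lipid metabolism, and Mmp14, a membrane-bound matrix protease, had -0.40 ± 0.0796 and -0.37 ± 0.0673.

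The largest negative values among genes that passed with antigen alone were those of Fn1, Chst3, Samd4 and Gprc5b. Fn1, fibronectin, was at 144, 107 and 129 CPM in WT none and 175, 120 and 156 in KO none, and at 64.4, 52.3 and 75.8 in WT antigen and 14.9, 15.2 and 16.5 in KO antigen. The antigen-free groups overlapped and the antigen groups did not, and the log2 response of Fn1 was -3.28 in knockout and -0.98 in WT (difference -2.29 ± 0.275, adjusted p = 0.00243). Chst3, a sulfotransferase that modifies chondroitin, was at 9.83, 10.3 and 9.94 CPM in WT none, 12.2, 10.2 and 9.75 in KO none, 1.7, 1.9 and 1.53 in WT antigen and 0.428, 0.652 and 0.178 in KO antigen (-2.15 ± 0.316, adjusted p = 0.00058). Samd4, an RNA-binding translational repressor, and Gprc5b, an orphan receptor, had -1.65 ± 0.298 and -1.60 ± 0.302. Slc7a2, a carrier of cationic amino acids including arginine, rose with antigen in WT (0.50) and fell in knockout (-0.38), as log2 responses. It was at 18, 18 and 19.8 CPM in WT none, 29.2, 23.6 and 26.7 in WT antigen, 17.7, 20.1 and 16.3 in KO none and 15, 12.8 and 13.6 in KO antigen (-0.88 ± 0.128, adjusted p = 0.00058). Fibroblast markers, which include genes that macrophages may also express, summed to 39.3 to 110 CPM in WT none, 148 to 222 in WT antigen, 19.3 to 35.4 in KO none and 58.7 to 67.1 in KO antigen. Of 10 of them 1 passed for the difference of responses, Thy1 (0.75 ± 0.168), which T cells also carry, in the positive direction, and their part in the Fn1 value was not tested.

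In the positive direction of the antigen-alone class, Mrc1, the mannose receptor CD206 of macrophages, fell with antigen in both genotypes and less far in knockout. It was at 977, 1030 and 986 CPM in WT none, 167, 194 and 177 in WT antigen, 870, 949 and 934 in KO none and 240, 335 and 287 in KO antigen (0.80 ± 0.148, adjusted p = 0.0145). Il1f9, the gene of the IL-36γ cytokine, was at 4.03, 3.6 and 3.8 CPM in WT antigen and 4.88, 7.02 and 7 in KO antigen, with 4.29, 4.53 and 4.47 in WT none and 3.58, 3.14 and 3.18 in KO none (1.15 ± 0.206, adjusted p = 0.00293). Havcr2, the inhibitory receptor TIM-3, was at 20.8, 20.7 and 20.9 CPM in WT antigen and 25.7, 27.7 and 28.7 in KO antigen, with overlapping levels of 20 to 24.5 CPM in the antigen-free libraries (0.49 ± 0.0973, adjusted p = 0.0055).

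Ifi208, of the interferon-inducible p200 family, was near absent in 3 groups and present in 1. It held 8 counts over the 3 WT antigen libraries and 1459 over the 3 KO antigen libraries, a ratio of 171 at equal depth (95% exact interval 86.4 to 396, which covers counting error only). Its level was 27.3, 19.7 and 19.1 CPM in KO antigen and below 1 CPM in each of the other 9 libraries. Members of this family are near-identical in sequence, so the counting could have split reads between them. With IL-1β and IL-18 it was again higher in knockout, by 7.09 and 6.54 on the log2 scale.

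Immunoglobulin genes carried the largest genotype differences, and these were nearly the same in both conditions. Of 180 tested immunoglobulin genes 175 were higher in knockout without antigen and 177 with it, against 7.9% and 7.32% of all genes. Their median log2 differences were 5.56 and 5.59. The filter on low counts keeps a gene that is expressed in the libraries of a single group. Members high in knockout alone could thus enter the list, so these counts are in part set by the filter. The 2 members that passed for the difference of responses were Ighm and Ighd, the constant regions of IgM and IgD. Ighm was at 77.8, 85.5 and 86.3 CPM in WT none, 30.6, 28.9 and 34.2 in WT antigen, 84.4, 79.6 and 74.4 in KO none and 111, 79.6 and 94 in KO antigen. The genotypes overlapped without antigen, and WT antigen was the low group (1.68 ± 0.164, adjusted p = 0.000432). Igkc, the κ light chain constant region, was at 11.1 to 17.2 CPM in WT none and 603 to 835 in KO none, and at 12.9 to 20.9 in WT antigen and 753 to 908 in KO antigen (0.07 ± 0.31, adjusted p = 0.943). Sdc1, syndecan-1, which plasma cells and some macrophages carry, went the other way. It was at 130, 119 and 128 CPM in WT none, 118, 112 and 119 in WT antigen, 171, 169 and 175 in KO none and 80.6, 87.5 and 94 in KO antigen, with its genotype order reversed by antigen (-0.87 ± 0.0706, adjusted p = 2.61e-06). Plasma cell markers, a list that includes Sdc1, summed to 314 to 337 CPM in the WT libraries, 558 to 613 in KO none and 452 to 481 in KO antigen. Their mean log2 level relative to WT none overlapped between the knockout groups, at 1.45 to 1.68 in KO none and 1.36 to 1.65 in KO antigen.

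Other sign-changing genes were Ptch1, the Hedgehog receptor (-0.99 ± 0.114), Cnksr3, a scaffold of kinase signalling (-0.77 ± 0.135), St8sia4, a polysialyltransferase (-0.60 ± 0.0702), and Mitf, a transcription factor related to the lysosomal regulator TFEB (-0.37 ± 0.0602). In the positive direction Rasgrp3, a Ras activator, had 1.87 ± 0.314. It was at 26.8, 35.6 and 29.4 CPM in WT none, 0.794, 0.719 and 0.592 in WT antigen, 19.8, 16.5 and 19.2 in KO none and 1.67, 1.85 and 1.16 in KO antigen, so antigen lowered it in both genotypes, to under 2 CPM in each library. P2ry12, a nucleotide receptor, and Lifr, a receptor chain for leukaemia inhibitory factor, had 1.20 ± 0.209 and 1.19 ± 0.202.

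In 29 genes the genotypes differed in the same direction in both conditions by unequal amounts. Slpi, secretory leukocyte protease inhibitor, was at 1.8, 1.78 and 1.94 CPM in WT none, 59.8, 54 and 55.7 in WT antigen, 14.9, 10.6 and 12.5 in KO none and 91.9, 92.3 and 96.8 in KO antigen. Knockout was above WT in every library of both conditions, by 2.78 ± 0.136 without antigen and 0.73 ± 0.0643 with it, a difference of responses of -2.05 ± 0.157 (adjusted p = 2.61e-06). Tmem176b and Tmem176a, neighbouring genes for membrane proteins of antigen-presenting cells, had a genotype difference of -1.06 and -1.02 without antigen, against -0.24 ± 0.0394 and -0.25 ± 0.0415 with it. Tmem176b was at 82.7, 82.1 and 84 CPM in WT none, 149, 158 and 155 in WT antigen, 40.6, 41.4 and 37.5 in KO none and 127, 132 and 133 in KO antigen (0.82 ± 0.0585, adjusted p = 9.86e-07). Acp5, tartrate-resistant acid phosphatase, and Cd5l, a secreted protein of tissue macrophages, had differences of responses of -0.93 ± 0.141 and -1.002 ± 0.163, the first from a larger genotype difference without antigen and the other from a larger one with it. Serpinb2, the plasminogen activator inhibitor PAI-2, had 1.43 ± 0.282 and did not pass in the fit of all 24 libraries (adjusted p = 0.106).

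**Figure D3:**
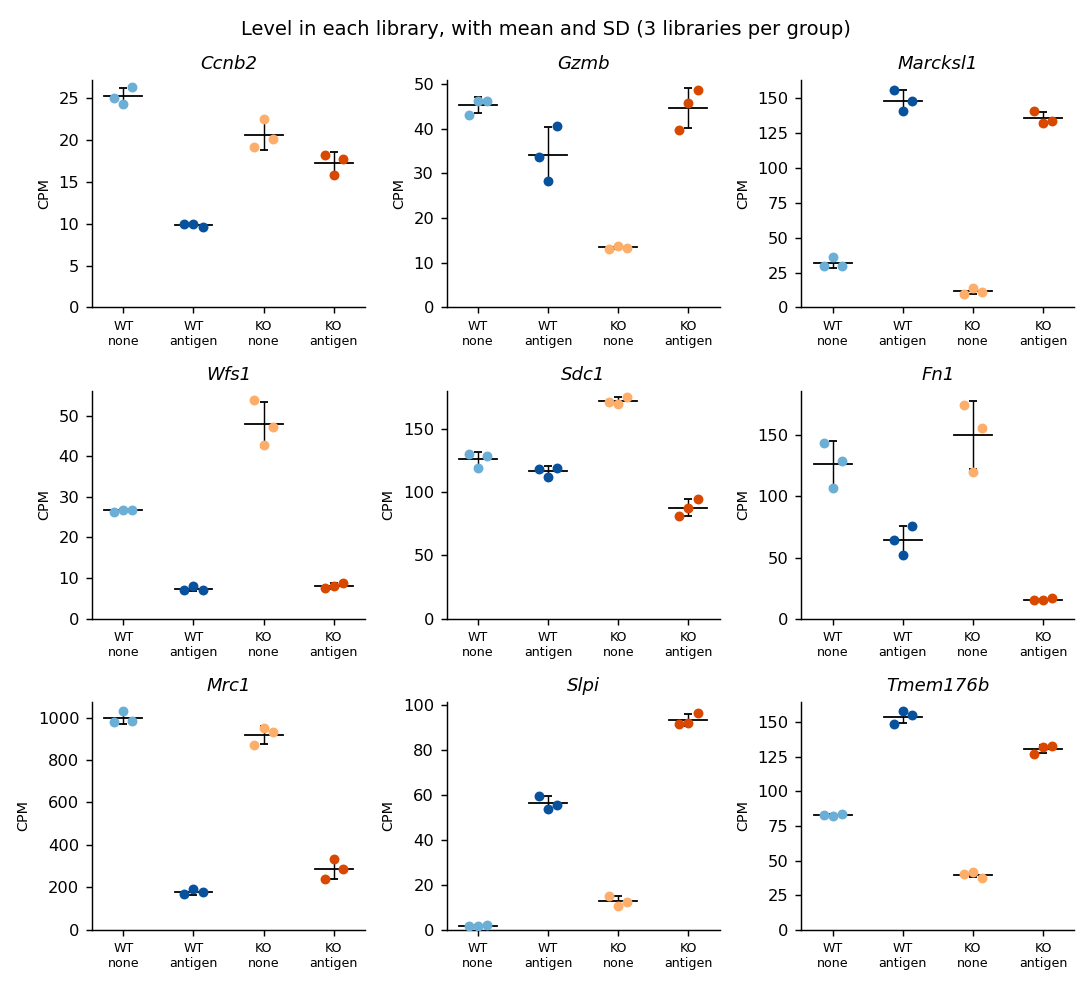
CPM of 9 genes in each of the 12 libraries, with the mean (horizontal line) and SD (error bar) of the 3 libraries per group. Ccnb2 and Sdc1 change their genotype order with antigen, Gzmb, Marcksl1 and Wfs1 differ mainly without antigen, Fn1 and Mrc1 mainly with it, and Slpi and Tmem176b differ in both conditions by unequal amounts.

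Interferon-inducible genes were spread widely among the KO none libraries. Over the 16 tested GTPases of the guanylate-binding and immunity-related families, which act against intracellular microbes, the mean log2 level relative to WT none was -2.25, 0.27 and -1.15 in the 3 KO none libraries, against -0.08 to 0.09 in WT none, 0.80 to 0.86 in WT antigen and 0.95 to 0.98 in KO antigen. All 16 were higher in KO none replicate 2 than in both other KO none libraries. Gbp2, a guanylate-binding protein, was at 98, 648 and 197 CPM in KO none and at 572, 611 and 538 in WT none, and the antigen groups lay at 692, 640 and 690 in WT and 759, 752 and 758 in knockout. With all libraries 0 of the 16 passed for the difference of responses with edgeR (median 0.88), 0 had an unadjusted p under 0.05 and DESeq2 called 0. Leaving out KO none replicate 2, one of the leave-one-out fits, gave 15 of 16 positive (median 1.76), with Gbp2 at 2.12 (adjusted p = 0.00561). In that fit 857 of all 13763 genes were positive.

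Antigen raised all 23 type I interferon targets in both genotypes (33.2% of all genes in WT and 34.6% in knockout). With all libraries 2 of the 23 were positive, against 3.25% of all genes, and 11 were without KO none replicate 2. The 2 were Ifit3b (1.36 ± 0.317) and Ifih1 (0.31 ± 0.0858), which lost their calls in 7 and 10 of the 12 leave-one-out fits. Of 16 genes of MHC class I antigen presentation 0 were positive with all libraries (2 at an unadjusted p under 0.05, 0 with DESeq2) and 12 without that library. Both counts without it stand against 857 of all 13763 genes. All 23 type I interferon targets were higher in that library than in both other KO none libraries. For comparison, 13 of the 24 mitosis and cytokinesis genes were, and 4882 of all 13763 genes.

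**Figure D4:**
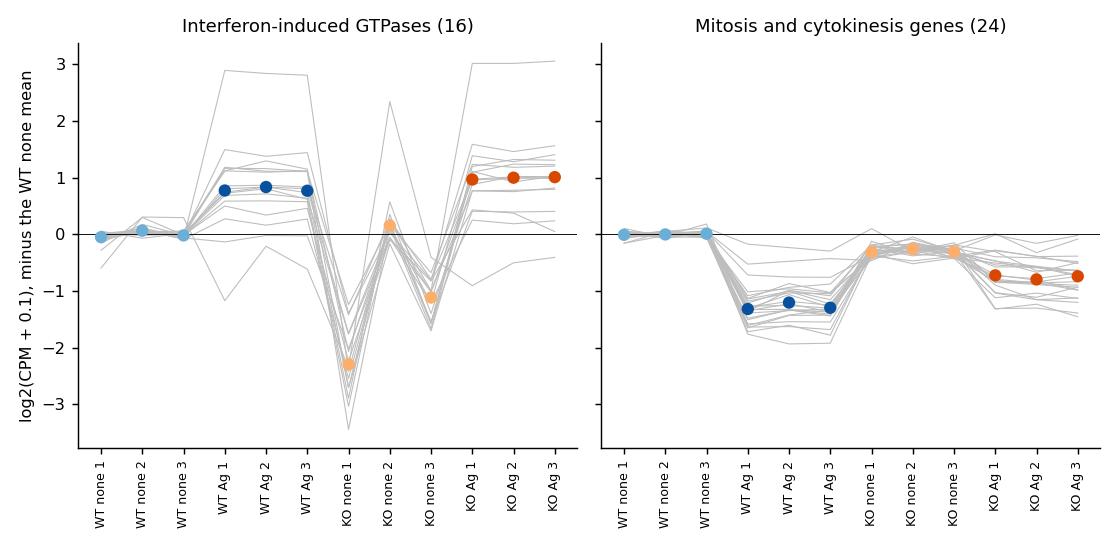
Level of each gene (grey lines) and the list median (points) in each of the 12 libraries, as log2(CPM + 0.1) minus the mean of WT none, for the 16 interferon-induced GTPases and the 24 mitosis and cytokinesis genes. The 3 KO none libraries are spread apart for the GTPases and lie together for the mitotic genes.

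Inflammatory lists differed in the share of genes that passed for a difference of responses, which was 5.84% over all genes. Antigen raised 22 of 24 NF-κB targets in WT. In each condition 12 were lower in knockout (medians -0.52 without and -0.25 with antigen, against 6.6% and 6.42% of all genes lower). For the difference of responses 1 was positive and 1 negative (8.33% of the list). These were Nfkbiz, an inducible co-regulator of NF-κB (0.63 ± 0.136, lost in 4 of the 12 leave-one-out fits), and Bcl2a1b, a survival gene (-0.70 ± 0.13). Il1b, interleukin 1β, was at 3.44, 13.1 and 6.11 CPM in WT none, 792, 738 and 773 in WT antigen, 1.13, 4.1 and 1.92 in KO none and 369, 386 and 411 in KO antigen. Knockout was below WT with antigen, and the response did not pass for a difference (0.71 ± 0.635, adjusted p = 0.612). Il1rn, the IL-1 receptor antagonist, had 0.50 ± 0.14 (adjusted p = 0.0709, and 0.00658 with DESeq2's Wald test), Tnf 0.49 ± 0.223 (adjusted p = 0.258), and Marco, a scavenger receptor, 0.89 ± 0.347 (adjusted p = 0.186, and 0.0335 with DESeq2). Among CC chemokines 3 of 10 were positive, against 3.25% of all genes. These were Ccl2 (1.50 ± 0.329), Ccl12 (2.47 ± 0.591) and Ccl9 (0.37 ± 0.094), but each lost its call in 8 to 10 of the 12 leave-one-out fits.

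Neutrophil marker genes gave 5 positive and 0 negative of 14 (median 0.40), against 3.25% and 2.59% of all genes. These were Ltf, lactoferrin (1.36 ± 0.313), Elane, neutrophil elastase (0.74 ± 0.17), Ngp, neutrophilic granule protein (0.72 ± 0.101), Mpo, myeloperoxidase (0.71 ± 0.15), and Prtn3, proteinase 3 (0.66 ± 0.174). Ngp was at 291, 266 and 280 CPM in WT none, 15.1, 15.9 and 19.9 in WT antigen, 334, 319 and 323 in KO none and 31.1, 33.3 and 33.2 in KO antigen. Antigen lowered it less far in knockout, and Ngp passed in every leave-one-out fit, whereas Ltf was lost in 7 of 12, Prtn3 in 8, and Elane and Mpo in 1 each.

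Genes of the lysosome, where the channel sits, were in part higher in knockout. Of 31 hydrolase and membrane protein genes 17 were higher without antigen and 13 with it (medians 0.17 and 0.09, against 7.9% and 7.32% of all genes higher), and 0 were positive and 3 negative for the difference of responses (Galns, Naglu and Npc1, between -0.28 and -0.20, against 2.59% of all genes), a count that was 1 positive and 0 negative with library totals as scaling and 0 positive and 6 negative without KO none replicate 2, where 857 genes were positive and 689 negative over all genes. Each of the 3 lost its call in at least 8 leave-one-out fits. Of 16 subunits of the proton-pumping V-ATPase and 14 lysosomal ion channels 0 passed with edgeR (medians -0.05 and -0.02), although 5 and 3 had an unadjusted p under 0.05 and DESeq2 called 2 and 0, and 3 and 1 were negative without KO none replicate 2. Of 23 autophagy and TFEB-family genes 4 were negative (median -0.08, against 2.59% of all genes). Without KO none replicate 2, 8 were, against 689 of all genes. Of the 4, Mitf, named above, passed in every leave-one-out fit. Map1lc3a and Gabarapl1, which encode proteins conjugated to the autophagosome membrane, had -0.60 ± 0.151 and -0.33 ± 0.0781, and Wipi1, an early autophagy protein, had -0.37 ± 0.0892, and these lost their calls in 6, 7 and 5 leave-one-out fits. MHC class II, oxidative phosphorylation and NRF2 target genes gave 0 of 10, 0 of 20 and 0 of 19 with edgeR, with 0, 1 and 4 at an unadjusted p under 0.05 and 0, 0 and 1 called by DESeq2. Without KO none replicate 2 these were 0, 0 and 4, the 4 NRF2 targets negative.

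Metabolic lists held called genes at about the share of all genes. Antigen raised all 21 tested genes of glycolysis and hypoxia in WT and 20 in knockout (33.2% and 34.6% of all genes), and 1 differed in response, a share near the 5.84% of all genes. This was Gpi1, glucose-6-phosphate isomerase, at 374, 404 and 378 CPM in WT none, 844, 833 and 836 in WT antigen, 417, 418 and 404 in KO none and 729, 697 and 746 in KO antigen, where the antigen-free genotypes met at 404 CPM and knockout was below WT with antigen (-0.31 ± 0.0517, adjusted p = 0.0017). Antigen lowered 21 of 23 cholesterol synthesis genes in WT and 22 in knockout (35.1% and 34.1% of all genes). Of the 23, 1 differed in response (4.35%, against 5.84% of all genes). This was Hmgcs1, which makes the precursor of mevalonate (-0.36 ± 0.0773, adjusted p = 0.0113).

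Lipid-handling targets of LXR and PPAR gave 1 positive and 3 negative genes of 17, against 3.25% and 2.59% of all genes. Plin2, the coat protein of lipid droplets, was at 934, 993 and 959 CPM in WT none, 204, 230 and 208 in WT antigen, 1130, 1280 and 1190 in KO none and 329, 353 and 336 in KO antigen. Knockout was above WT in both conditions, and by more with antigen (0.34 ± 0.0698, adjusted p = 0.00703). The negative genes were Pparg and Cd5l, named above, and Abca1, a cholesterol exporter (-0.31 ± 0.0833, lost in 9 leave-one-out fits). Of 17 scavenger receptor genes 2 were positive and 2 negative, against the same shares of all genes. The positive genes were Mrc1 and Stab1, stabilin 1, and the negative ones Colec12, a collectin, and Scarf1. Stab1 was at 824, 827 and 822 CPM in WT none and 576, 482 and 569 in KO none, while the antigen groups overlapped at 317, 250 and 296 in WT and 292, 275 and 301 in knockout (0.61 ± 0.123, adjusted p = 0.0172, lost in 1 leave-one-out fit).

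Of 10 genes of arginine, nitric oxide and itaconate metabolism 2 were positive and 1 negative, against 3.25% and 2.59% of all genes. The positive genes were Odc1 (0.43 ± 0.0993) and Ass1 (0.45 ± 0.122), which did not pass in 3 and 11 of 19 alternatives. Slc7a2, named above, was the negative one. Nos2 and Arg1, also of this list, did not pass. Nos2, the inducible nitric oxide synthase, was at 0.249, 3.32 and 0.994 CPM in WT none, 726, 591 and 674 in WT antigen, 0, 2.08 and 0.179 in KO none and 674, 471 and 602 in KO antigen (0.94 ± 1.2, adjusted p = 0.736). Arg1, arginase 1, was at 86, 84 and 78.9 CPM in WT antigen and 41.6, 25.9 and 30 in KO antigen, with at most 2.07 CPM in the antigen-free libraries (-0.83 ± 1.07, adjusted p = 0.738). For both genes the antigen-free replicates differed several-fold among themselves, and their SE was large. Il6 and Il12b, cytokines of activated macrophages, had -1.97 ± 1.09 and 0.38 ± 0.568, and Cd274, the checkpoint ligand PD-L1, 0.03 ± 0.316, with adjusted p of 0.339, 0.775 and 0.974. Without KO none replicate 2 Cd274 passed (0.39, adjusted p = 0.0307). Antxr1, a collagen-binding receptor, differed in both conditions and by less with antigen (1.22 ± 0.264, adjusted p = 0.0111), as did Tmem165, a Golgi transporter, in the other direction (-0.42 ± 0.0729, adjusted p = 0.00246).

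**Figure D5:**
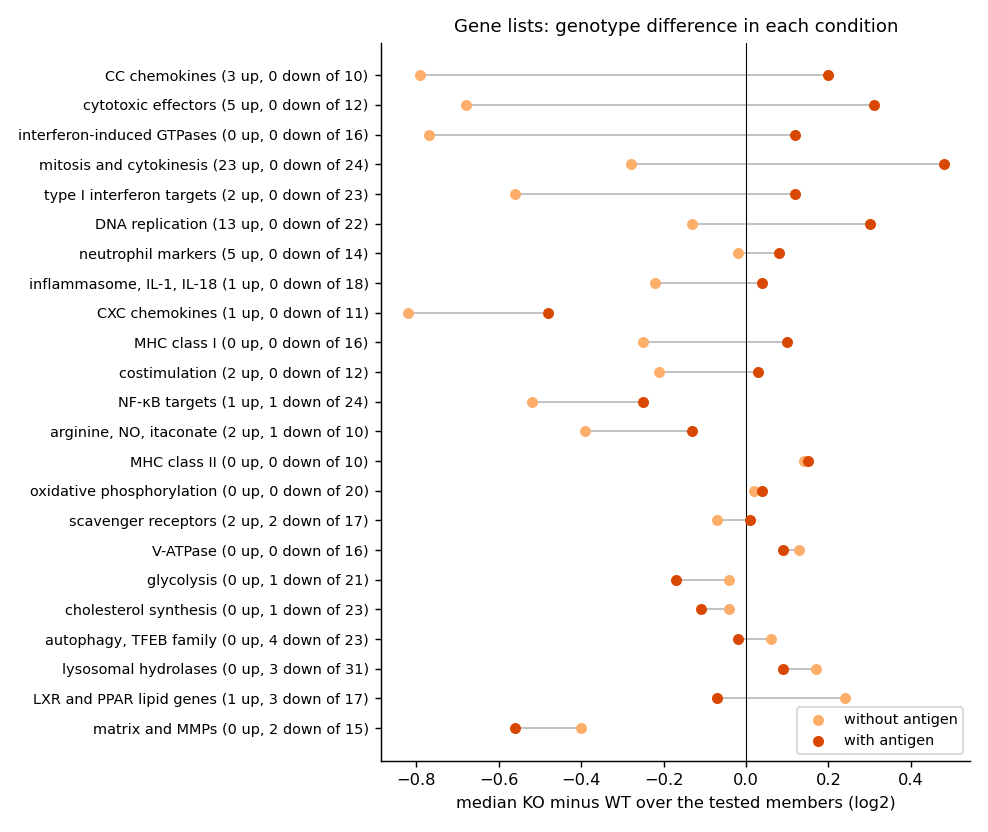
Median knockout minus WT (log2) over the tested members of 23 gene lists without antigen and with antigen, ordered by the median difference of responses; each label gives how many members had a called positive (up) or negative (down) difference of responses. The mitosis and cytokinesis list crosses 0 with the most called members, 23 of 24, and the interferon-induced GTPases have a wide gap with 0 called.

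The 12 libraries with antigen and a cytokine share no library with those above and gave a further measure of the genotype difference with antigen present. The labels do not say whether they came from the same cell preparations. Of 160 genes of the antigen-alone class with a positive difference of responses, 85 were called higher in knockout with IL-1β and 91 with IL-18, against 8.01% and 10.9% of all genes, and 0 were called lower. Of 111 with a negative value, 76 and 77 were called lower (6.98% and 10.4% of all genes) and 0 higher. Of the 97 sign-changing genes that were higher with antigen, 70 and 67 were called higher and 0 lower, and of the 25 others 13 and 17 were called lower and 0 higher. Genes that had differed without antigen alone were close to the background: of 144 tested with a positive value 12 and 22 were called higher and 6 and 9 lower, and of 190 with a negative value 15 and 18 were called higher and 8 and 25 lower.

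The mitosis and cytokinesis genes were higher in knockout in 20 of 24 cases with each cytokine, with medians of 0.36 and 0.35. Ccnb2 was higher by 0.54 with IL-1β and 0.52 with IL-18, and Fn1 had -1.76 and -1.92, as log2 differences of knockout from WT. Marcksl1 and Wfs1, of the class without antigen alone, had -0.13 and -0.14 and 0.03 and 0.22, with adjusted p of 0.101, 0.0564, 0.868 and 0.124. Gzmb, whose difference with antigen and no cytokine had an adjusted p of 0.0432, had 0.45 and 0.44 with adjusted p of 0.089 and 0.0639.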

How the data were processed

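RNA from poly(A)-selected libraries was extracted with Trizol, per the labels' protocols. The authors deposited unnormalized counts of 55487 Ensembl genes in 24 libraries; the submitters' processing notes name fastp (version not stated) and GRCm39. The aligner, counter, strand setting and annotation release were not given in the sources used here. Titles set the groups; in 5 of the 6 knockout libraries compared, the genotype entry names a gene other than Tmem175. Symbols were matched by identifier (346 had none, 0.0228% of counts).

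The 12 libraries without cytokine were fitted with edgeR 4.0.16 in R 4.3.3 (filterByExpr, TMM, robust quasi-likelihood, 1 coefficient per group, 8 residual degrees of freedom, biological coefficient of variation 5.53%), the 12 with cytokine separately. Calls used an adjusted p under 0.05 in each comparison over all genes. The script was tested on simulated data. A group under 3 counts per library was taken as at the floor. Named genes were 24 of interest, the 4 largest called per class and direction (mean of at least 2 log2 CPM, kept in every leave-one-out fit) and up to 4 called per list. Members and lists were chosen with earlier results of these data known. Alternatives were other scalings, DESeq2 1.42.0, no filter, a replicate block, all 24 libraries and leave-one-out; leaving out immunoglobulin genes was added after the data were seen. A member of the DNA replication list is counted but not reported here by name.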

Additional observations from a re-analysis of the deposited data

Results flagged for a closer look

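The antigen response differed between genotypes in 804 genes by the test of the difference itself (edgeR's quasi-likelihood test). Among the genes chosen by the naming rule, 9 also had antigen responses that passed in both genotypes in opposite directions. Those that fell in WT and rose in knockout were Gzmb (2.14), Gzma (2.32), Il2rb (1.13), Mpo, the neutrophil myeloperoxidase (0.71, lost in 1 leave-one-out fit), G530011O06Rik (1.29) and Ifi208 (6.54, where the WT values rest on few counts). Those that rose in WT and fell in knockout were Slc7a2 (-0.88), Cnksr3 (-0.77) and 1110008P14Rik (-0.72).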

How the results depend on the processing

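Of the 84 called genes chosen by the naming rule, none changed sign under the alternatives run. Of the 20 not called, 7 changed sign in at least 1 alternative without passing on the other side (Arg1, Cd274, Igkc, Il12b, Il18, Jchain and Nos2). The 804 calls became 874 with median-of-ratios factors, 1074 with library totals, 867 with DESeq2, 1391 with no filter, 1183 with all 24 libraries and 820 without immunoglobulin genes (a choice made after seeing the data). Leaving out 1 library gave 452 to 1547 for the difference of responses, 1245 to 2499 for knockout against WT without antigen, 1229 to 1560 with antigen, 1400 to 1950 with IL-1β and 1880 to 2737 with IL-18. Genes differing without antigen alone (336) were 149 to 771 in the leave-one-out fits, 603 with no filter and 523 with all 24 libraries. Those with antigen alone (271) were 176 to 373. Those differing in both conditions in the same direction (29) were 14 to 77, 106 with no filter, 51 with the replicate block and 45 with all 24 libraries, and those in opposite directions (122) were 64 to 206. Those in neither (46) were 16 to 120, 112 with library totals, 105 with DESeq2, 100 with no filter and 91 with all 24 libraries. The cause was not tested. A fit with the replicate number as a block called 1017 genes for the difference of responses. Same-numbered libraries of different groups correlated at -0.0175 to 0.243 in their deviations from the group means, not all over 0.1, and the labels tie the numbers to no shared animal, batch or day, so the numbers were not taken to pair the samples. Yet 25 of 36 comparisons of a library with another group were highest for its own number, and not every one, which is a hint of pairing from the data and not from the design. Levels below about 1 CPM rest on few counts, and differences there were not detectable unless large.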

Other observations

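Some of the largest differences of responses were in genes below the level set for naming, and the genes here were chosen after their values were seen. Edn1, Pgf and Adm, which encode the secreted vascular peptides endothelin 1, placental growth factor and adrenomedullin, were nearly absent from KO none. Over the 3 libraries of each group Edn1 held 21 counts in WT none and 1 in KO none (ratio at equal depth 21.2, 95% exact interval 3.41 to 877, counting error only). Pgf held 16 and 2 (ratio 8.08, interval 1.9 to 72.4), and Adm 21 and 2 (ratio 10.6, interval 2.59 to 93.3). With antigen Edn1 reached 1.3, 0.931 and 1.18 CPM in the WT libraries and 3, 1 and 1.65 in the knockout libraries. Pgf reached 1.3, 1.57 and 1.23 CPM in WT antigen and 2.23, 2.76 and 3.52 CPM in KO antigen. Pgf passed in every leave-one-out fit (adjusted p = 0.00515), while Edn1 and Adm each lost their call in 6 of 12.

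Lipg, endothelial lipase, was at 0.399, 0.819 and 0.596 CPM in WT none, 0.34, 0.381 and 0.197 in WT antigen, 0.147, 0.266 and 0.313 in KO none and 1.93, 1.25 and 1.7 in KO antigen. Only in the last group did Lipg pass 1 CPM, and knockout was above WT by 2.84 with IL-1β and 2.08 with IL-18 on the log2 scale. Gm42031, a predicted gene, held 1620 counts in WT none and 3 in KO none (ratio 545, interval 186 to 2650), and 585 in WT antigen and 10 in KO antigen (ratio 62.5, interval 33.7 to 131). Its level in knockout stayed below 1 CPM in all 6 libraries.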
